A study of Drosophila melanogaster with 50 samples.

Results

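The 80 h magnet experiment asked which transcripts of adult fruit flies differed between flies kept inside a superconducting magnet at 14C and flies kept beside it at 24C. Its 7 arrays, of 50 in the whole series, were taken by their titles. They comprised 2 arrays of flies at the 0g* position, 2 arrays of flies at the 1g* position and 3 arrays of flies outside the magnet at 1g. All were labelled as females of the Oregon R strain, 5 days old, and all were put on ice in Trizol straight after the exposure. The magnetic levitator holds living material in a strong field gradient, and the asterisk marks a g level set by the pull of that field: at 0g* the pull balances the weight of the water in the fly, whereas at 1g* the field acts without a net lift. The labels give 14C for both field groups and 24C for the outside group. No 80 h group outside the field at 14C is among these arrays, so that field and temperature cannot be told apart in the 80 h run. Magnet arrays whose titles give no duration are called the first magnet run here. The titles name no run, batch or order, so that both run names are only labels of this report.

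Flies do not regulate their body temperature, and cold slows feeding, digestion and egg production while cells adjust their lipids, their chaperones and their daily clock. The clock runs on a negative feedback loop in which the proteins of period and timeless accumulate and repress their own transcription, and timeless protein is removed in the light through the photoreceptor cryptochrome. Digestion of protein in the adult midgut rests on large families of secreted serine proteases of the trypsin and Jonah type, and unfolded protein is handled by the inducible Hsp70 chaperones.

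The array medians were 5.28 to 5.34 log2 units in the field and 5.23 to 5.25 outside, so every field array lay slightly above every outside array. The correlation between any 2 of the 7 arrays was 0.978 to 0.995. The yolk protein list, a marker of egg-producing females, had medians of 14.00 to 14.17 on all 7 arrays. Transcripts of males were seen on 1 array. At 1g* replicate 1 the median of 29 seminal fluid genes was 7.04 and that of 22 sperm genes 6.30, against 3.78 to 4.03 and 3.83 to 4.12 on the other 6 arrays. The contrast of 3′ and 5′ control probe sets for eIF-4a, a sign of RNA integrity, was 2.43 to 3.34 in the field and 2.61 to 2.92 outside, so the groups overlapped. For GAPDH it was 1.94 to 2.93 in the field and 2.11 to 2.56 outside, and for actin 1.84 to 3.00 and 1.80 to 1.97. On both of these, 0g* replicate 2 (2.93 and 3.00) and 1g* replicate 1 (2.75 and 2.29) lay above every outside array. All values below are log2 intensities, a difference of 1 being a doubling, and differences are field minus outside with their standard error (SE) from limma, where field is the mean of the 0g* and 1g* groups.

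Between field and outside, 375 of 18769 probe sets (2.00%) were called at an adjusted p under 0.05 by limma. Of these, 189 were higher in the field (1.01%) and 186 lower (0.991%), and they represented 158 and 162 genes with a symbol of their own. All 375 had the same sign at 0g* and at 1g*, which a call on the mean of both positions favours. The field arrays lay wholly above or below the outside arrays for 371 of them, and for 13.4% of all probe sets (8.51% with the field higher and 4.93% with it lower). The falls were larger, with a median of -0.94 against 0.74 for the rises, and 78 falls but 36 rises exceeded 1 log2 unit. The balance of directions depended on the scaling: with each array centred on its own median, 124 probe sets were higher and 238 lower. The count also rested on single arrays. Omitting an outside array reduced it, to 83 (replicate 1), 187 (replicate 2) or 91 (replicate 3). It was 214 when 0g* replicate 2 was omitted and 822 when 1g* replicate 2 was omitted, whereas 66 of the 375 stayed called whichever array was left out. When 1g* replicate 1, on which male transcripts were seen, was omitted, 291 probe sets were called, 258 of them among the 375.

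Each position was also compared with the outside arrays by itself. At 0g* 174 probe sets were called (0.927%), 77 higher (0.410%) and 97 lower (0.517%), and at 1g* 190 (1.01%), 87 higher (0.464%) and 103 lower (0.549%). In both, 88 probe sets (0.469% of all) were called in the same direction and 0 in opposite directions; 28 were higher (0.149%) and 60 lower (0.320%). These 88 made up 50.6% of the calls at 0g* and 46.3% of those at 1g*. The 2 comparisons share the outside arrays and are therefore not independent of each other. The 88 probe sets represented 76 genes, 42 of them known only by a CG number, and 58 of the 88 stayed called in the pooled comparison whichever array was left out. The number called in both positions fell to 21, 54 and 35 as outside replicates 1, 2 and 3 were omitted in turn, to 50 and 13 as the 0g* replicates were, and to 41 when 1g* replicate 1 was, but was 104 when 1g* replicate 2 was. The genes described next as the largest rises and falls come from these 76. No overlap between field and outside arrays was a condition of their choice, so it is not a separate result for them.

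The largest rise belonged to CG18649, which has only a systematic name. Its values were 7.01 and 7.30 at 0g*, 6.14 and 5.69 at 1g*, and 4.30, 4.58 and 3.63 outside. Every field array lay above every outside array, and the 0g* arrays lay above the 1g* arrays. The difference was 2.37 (SE 0.22, adjusted p = 0.00175), or 5.15-fold. Outside replicate 3 was below the background of its array (4.2825), the 95th percentile of the plant controls. The other outside arrays were near theirs (4.191 and 4.3205), so the size of this rise is uncertain. The second largest rise was on 1 of 2 probe sets of the clock gene tim, described with the clock genes below. CG13315 was among the bright transcripts, at 13.45 and 12.97 at 0g*, 12.76 and 13.02 at 1g* and 11.33, 11.40 and 11.56 outside. Its field arrays stood clear of the outside arrays in both positions, by 1.62 (SE 0.14, adjusted p = 0.00174). CG6870 rose by 1.44 (SE 0.11, adjusted p = 0.00174) and CG10581 by 1.43 (SE 0.14, adjusted p = 0.0019), again without overlap.

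The other 5 of the 10 largest rises lay between 1.12 and 1.19. They included NaPi-T, a transporter of phosphate coupled to sodium, and Tsp42Ei, a membrane protein of the tetraspanin family. NaPi-T was at 6.13, 6.19, 6.39 and 6.55 in the field and 5.18, 5.08 and 5.28 outside, a rise of 1.13 (SE 0.11, adjusted p = 0.00175). Tsp42Ei was at 7.71, 7.53, 7.99 and 7.99 in the field and 6.75, 6.68 and 6.60 outside, a rise of 1.13 (SE 0.10, adjusted p = 0.00175). The arrays of each group were close together and the groups were well apart. CG12116 rose by 1.19 and CG4213 by 1.12, both with an adjusted p of 0.00174. CG11842 rose by 1.17 (adjusted p = 0.00853), a call that was lost without outside replicate 3 (1.14, adjusted p = 0.0578). Zasp66, a component of the muscle Z disc, was called higher on 2 of its 3 probe sets, by 0.95 (SE 0.12, adjusted p = 0.00845) and 0.65 (SE 0.13, adjusted p = 0.0428). The first of these calls missed the threshold without outside replicate 1 (adjusted p = 0.0534).

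**Figure D1:**
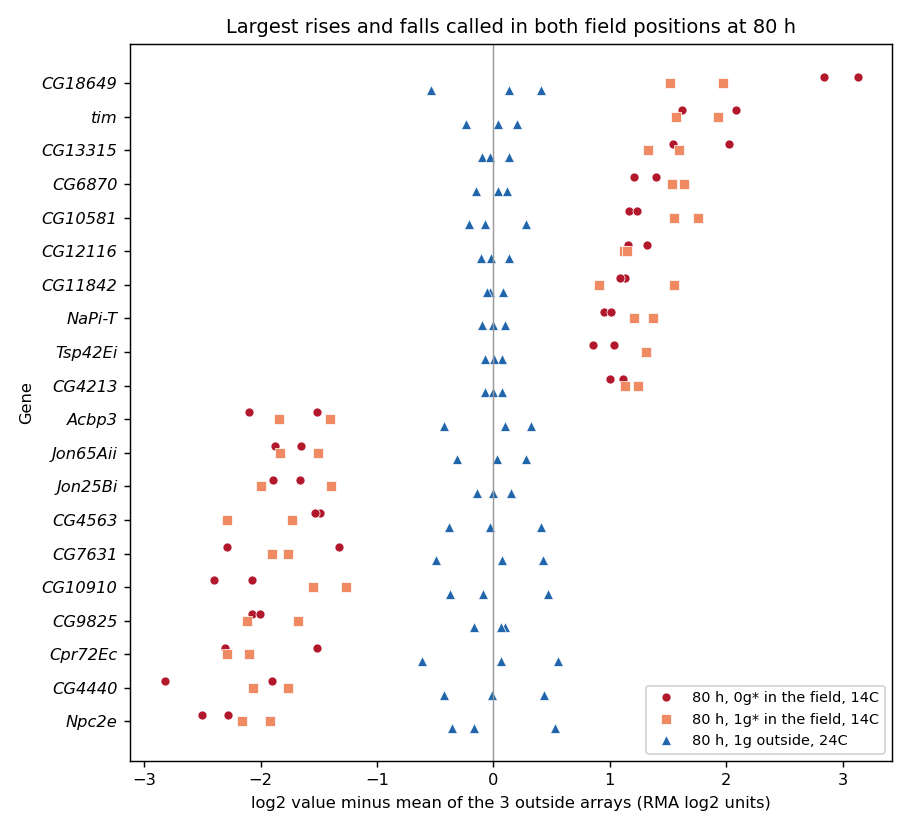
Each point is 1 array of the 80 h run; the x axis is the log2 value minus the mean of the 3 outside arrays, and the rows are the 10 largest rises and 10 largest falls among genes called in both field positions. The genes were chosen so that the 4 field arrays lie on 1 side of the 3 outside arrays. The mean differences run from 2.37 for CG18649 to -2.22 for Npc2e.

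The largest fall among the genes called in both positions was that of Npc2e, a member of the Niemann-Pick type C2 family of small secreted sterol-binding proteins. It was at 5.56 and 5.34 at 0g*, 5.92 and 5.68 at 1g* and 7.48, 7.67 and 8.37 outside. No field array reached the lowest outside array, and the difference was -2.22 (SE 0.20, adjusted p = 0.00174), a fall of 4.64-fold. Of the 8 Npc2 genes measured, Npc2e and Npc2g (-0.80, adjusted p = 0.036) fell and Npc2h (0.79, adjusted p = 0.0399) rose. This is 37.5% of the list called, against 2.00% of all probe sets. With each array centred on its own median, Npc2h was not called (adjusted p = 0.0577). The calls of Npc2g and Npc2h were lost under 4 and 6 of the 7 omissions of an array (highest adjusted p = 0.164 without outside replicate 1 and 0.189 without outside replicate 3).

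CG4440 was at 3.98 and 4.90 at 0g*, 5.04 and 4.74 at 1g* and 7.24, 6.79 and 6.38 outside, a fall of 2.14 (SE 0.25, adjusted p = 0.00567). On 0g* replicate 1 it was below the background of the array (4.1985), so the size of this fall is uncertain. CG9825 was at 4.68, 4.75, 5.08 and 4.64 in the field and 6.86, 6.82 and 6.59 outside, a fall of 1.97 (SE 0.13, adjusted p = 0.00174). In both genes the groups were separated by more than the range within either. Acbp3, which encodes an acyl-CoA binding protein, was at 8.31, 7.73, 7.98 and 8.42 in the field and 9.93, 9.40 and 10.15 outside, a fall of 1.72 (SE 0.21, adjusted p = 0.00681). CG10910 (-1.82, adjusted p = 0.00341), CG7631 (-1.82, adjusted p = 0.0114) and CG4563 (-1.76, adjusted p = 0.00457) fell by similar amounts. The call of CG7631 was lost without outside replicate 1 (-1.79, adjusted p = 0.0657) and without outside replicate 3.

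Digestive proteases were lower in the field. Of 30 serine protease genes on the list, 11 fell and 0 rose, against 0.991% of all probe sets called lower, and 27 had a negative difference. The median over the 30 was -0.61, against 0.04 over all probe sets. The array medians of the list were 9.37 to 9.49 in the field and 10.15 to 10.96 outside, without overlap. The 11 falls ranged from 0.61 to 1.74 log2 units. One of the 11, Send1 (-0.71), encodes a protease of the spermatheca, the sperm store of the female, and not of the gut. The other 10 comprised 9 Jonah genes and thetaTry.

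Jon25Bi was at 10.82 and 10.59 at 0g*, 11.09 and 10.49 at 1g* and 12.63, 12.34 and 12.48 outside, a fall of 1.74 (SE 0.16, adjusted p = 0.00174). Jon25Bii was at 11.61, 11.39, 12.08 and 11.57 in the field and 13.34, 13.03 and 13.15 outside, a fall of 1.51 (SE 0.15, adjusted p = 0.00215). Both are abundant Jonah proteases, and even their highest field array was well below their lowest outside array. Jon65Aii was at 9.26, 9.04, 9.08 and 9.41 in the field and 11.20, 10.60 and 10.95 outside, a fall of 1.72 (SE 0.16, adjusted p = 0.00175). The trypsin thetaTry was at 9.07 and 9.38 at 0g*, 9.99 and 9.99 at 1g* and 11.35, 10.75 and 11.29 outside, a fall of 1.52 (SE 0.16, adjusted p = 0.00323). Its 0g* arrays were the lowest, but 0g* and 1g* did not differ by an adjusted p under 0.05. These 4 genes and Jon66Cii (-1.11) were called in both positions, and the calls of the 4 were kept whichever array was left out. The number of falls on the list was 5 when outside replicate 1 or outside replicate 3 was omitted, 6 when 0g* replicate 2 was and 9 to 12 for each of the others. The Jonah genes are close copies of each other, and cross-hybridization among them was not tested. In RNA from whole animals, fewer cells of a type and less RNA per cell cannot be told apart.

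**Figure D2:**
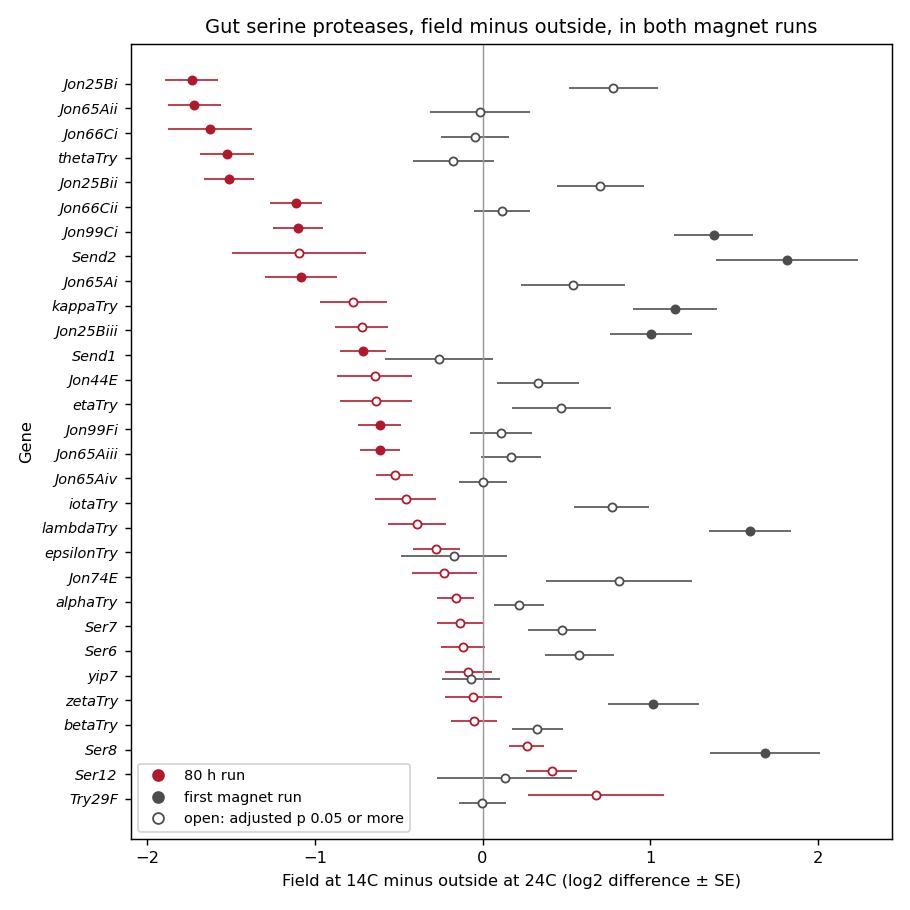
The x axis is the log2 difference between field at 14C and outside at 24C with its standard error, for the 30 serine protease genes on the rows, in the 80 h run (red) and the first magnet run (grey); filled points have an adjusted p under 0.05. In the 80 h run 27 of 30 genes lie left of 0 and 11 are filled, while in the first run 7 are filled, all right of 0.

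The deepest falls among the called probe sets were on those for Hsp70, chosen here after their values were seen, since each hybridizes to several near-identical Hsp70 copies and none can be assigned to 1 gene. The probe set for Hsp70Bc and Hsp70Bb was at 4.22 and 3.74 at 0g*, 4.30 and 4.03 at 1g* and 7.75, 6.49 and 7.49 outside. The field arrays were near the background of the arrays, 4.05 to 4.32, with 2 of the 4 below that of their own array, and the outside arrays were not. The size of this fall is therefore uncertain. The difference was -3.17 (SE 0.28, adjusted p = 0.00174). A probe set shared by Hsp70Bbb, Hsp70Bc, Hsp70Bb and Hsp70Ba fell by 3.10 (SE 0.28, adjusted p = 0.00174) and that of Hsp70Aa and Hsp70Ab by 2.17 (SE 0.33, adjusted p = 0.0141). The last call was lost without outside replicate 1 (-1.98, adjusted p = 0.0779) and without outside replicate 3. A further shared probe set was at 3.39 to 3.87 on all 7 arrays and differed by -0.02. Hsp68, another inducible member of the Hsp70 family, was at 6.36, 6.50, 7.21 and 6.29 in the field and 8.36, 7.75 and 8.23 outside, a fall of 1.52 (SE 0.22, adjusted p = 0.0137). It was the only one of 20 genes on the list of heat shock proteins and chaperones that was called, or 5.00% against 2.00% of all probe sets. Its call was lost without outside replicate 1 or replicate 3 (-1.47, adjusted p = 0.0786 without the latter).

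The 11 clock genes measured gave 3 calls, or 27.3% against 2.00% of all probe sets, and the gene tim moved both ways. On probe set 1631468_a_at tim was at 6.85 and 6.39 at 0g*, 6.34 and 6.70 at 1g* and 4.53, 4.81 and 4.97 outside. It rose by 1.80 (SE 0.16, adjusted p = 0.00174), or 3.48-fold. On probe set 1634188_a_at tim was at 8.34 and 8.29 at 0g*, 8.41 and 8.21 at 1g* and 8.93, 8.85 and 8.95 outside. It fell by 0.60 (SE 0.10, adjusted p = 0.0236). Groups did not overlap on either probe set. Among 1094 genes with more than 1 probe set of their own, 4 had more than 1 called, and tim was the only one called in opposite directions. The call of the fall was lost without 0g* replicate 2 or any 1 of the 3 outside arrays (at most adjusted p = 0.125, without outside replicate 1), whereas that of the rise was kept under all 7 omissions.

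The level of 1 probe set cannot be compared with that of another, but the gap between them can be followed across arrays. The first minus the second was -4.40, -4.04 and -3.98 outside at 24C and -1.49, -1.90, -2.07 and -1.51 in the field at 14C. In the first magnet run of the series, in which flies were also kept outside the field at 14C, the gap was -3.12, -3.05 and -3.29 outside at 24C, -2.43 and -2.0 outside at 14C and -2.19 to -0.88 on the 9 arrays in the field at 14C. In each run, every field array at 14C had a narrower gap than every array at 24C. The arrays outside the field at 14C, present in the first run only, did too. These gaps were chosen after the values were seen and were not tested. For the first of these 24C arrays the title gives 24C and the temperature field 14C.

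**Figure D3:**
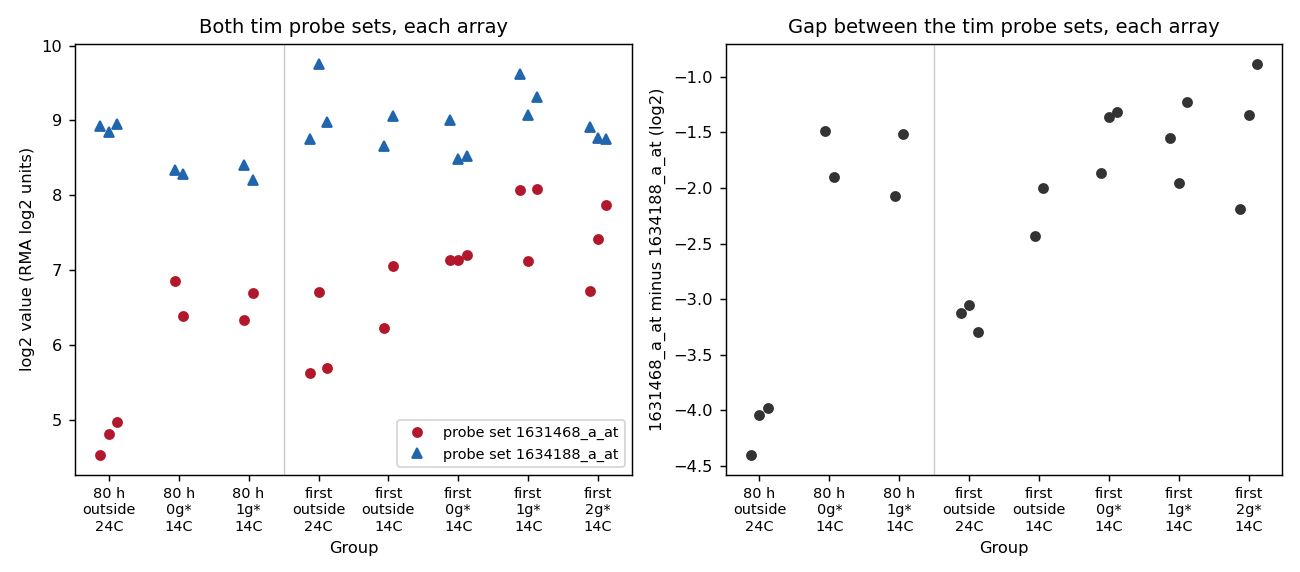
Left, log2 values of the 2 tim probe sets on each array of both magnet runs; right, the first minus the second on the same arrays. At 80 h the gap is -4.40 to -3.98 outside at 24C and -2.07 to -1.49 in the field at 14C, and the first run shows its lowest gaps in the group outside at 24C.

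The other clock calls were smaller. cry, the blue-light photoreceptor that triggers the loss of timeless protein, was at 6.25, 6.05, 5.75 and 5.76 in the field and 6.97, 6.60 and 7.03 outside, a fall of 0.91 (SE 0.13, adjusted p = 0.012). vri, a repressor of the activator Clock, was at 8.23, 8.64, 8.50 and 8.39 in the field and 7.73, 7.81 and 7.67 outside, a rise of 0.70 (SE 0.12, adjusted p = 0.0262). Neither gene showed overlap between field and outside. The call of cry was lost without outside replicate 1 (-0.86, adjusted p = 0.0752) or outside replicate 3, and that of vri under 4 of 7 omissions (0.67, adjusted p = 0.135 without outside replicate 3). The time of day at which flies were collected is not given in the sources used here.

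Immune genes moved in different directions. Of 21 antimicrobial and immune-induced peptides, 3 Bomanins, short peptides induced by the Toll pathway, rose and Def, the defensin active against Gram-positive bacteria, fell, which is 19.0% of the list called against 2.00% of all probe sets, with a list median of 0.21. BomBc2 was at 10.73, 10.05, 11.39 and 10.88 in the field and 9.36, 9.68 and 9.66 outside, a rise of 1.20 (SE 0.19, adjusted p = 0.0175). BomS2 rose by 1.14 (adjusted p = 0.0236) and BomT2 by 0.83 (adjusted p = 0.0455). With each array centred on its own median, BomT2 was not called (adjusted p = 0.0794). Def was at 7.57, 7.58, 7.69 and 7.57 in the field and 8.15, 8.44 and 8.98 outside, a fall of 0.92 (SE 0.18, adjusted p = 0.0376). The 4 field values of Def lay close together, while the outside arrays were spread. The largest differences of the list missed the threshold. DptB, a diptericin chosen after its values were seen, was at 6.85, 6.98, 6.68 and 6.67 in the field and 10.96, 11.52 and 7.49 outside, a difference of -3.20 (SE 0.79, adjusted p = 0.0916). Mtk, which encodes metchnikowin and was also chosen after its values were seen, was at 8.54, 8.32, 9.29 and 8.06 in the field and 12.37, 13.18 and 8.26 outside, a difference of -2.72 (SE 0.98, adjusted p = 0.249). Outside replicates 1 and 2 were high for both genes, and outside replicate 3 lay close to the field arrays. PGRP-LB, an enzyme that cleaves peptidoglycan and dampens the IMD pathway, fell by 0.72 (adjusted p = 0.0343). The calls of BomBc2 and BomS2 were lost under 3 of 7 omissions and those of BomT2, Def and PGRP-LB under 5 of 7, the highest adjusted p being 0.209 for BomT2 without outside replicate 3.

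Genes of the cuticle were few but among the largest changes, with 3 rises and 2 falls in 106 measured, or 4.72% called against 2.00% of all probe sets. Cpr72Ec was at 5.48 and 4.69 at 0g*, 4.90 and 4.71 at 1g* and 7.55, 7.06 and 6.38 outside, a fall of 2.05 (SE 0.27, adjusted p = 0.00884). Cpr49Ab fell by 1.14 (SE 0.17, adjusted p = 0.0135). Cpr47Eg was at 7.82 and 6.69 at 0g*, 6.14 and 6.08 at 1g* and 4.36, 5.39 and 4.45 outside, a rise of 1.95 (SE 0.30, adjusted p = 0.016). TwdlL, of the Tweedle family of cuticle proteins, rose by 1.23 (SE 0.22, adjusted p = 0.0256). Outside replicate 2 was the highest outside array for both rising genes, and their 0g* arrays were above their 1g* arrays. The same order held for Lcp65Ag3, a larval cuticle protein gene chosen after its values were seen, at 9.60 and 9.34 at 0g*, 8.43 and 7.87 at 1g* and 4.23, 7.31 and 3.94 outside. Its difference of 3.65 (SE 0.69, adjusted p = 0.0342) was the largest rise of the pooled comparison, although it was called in neither position by itself. Outside replicate 1 was near the background of its array (4.191) and replicate 3 below its own (4.2825), so the size of this rise is uncertain. The calls of Cpr47Eg and Cpr49Ab were lost under 2 of 7 omissions, those of TwdlL under 4 and that of Lcp65Ag3 under 5, the highest adjusted p being 0.146 for Lcp65Ag3 without outside replicate 1.

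Enzymes that oxidize foreign compounds were called in both directions. Of 81 cytochrome P450 genes, 4 rose and 5 fell, or 11.1% against 2.00% of all probe sets, with a median of -0.01. Cyp6a8 was at 6.90 and 7.0 at 0g*, 6.53 and 6.65 at 1g* and 5.72, 5.63 and 5.89 outside, a rise of 1.02 (SE 0.11, adjusted p = 0.00334). Cyp309a1 was at 5.37, 5.05, 5.56 and 5.50 in the field and 6.35, 6.87 and 6.69 outside, a fall of 1.27 (SE 0.15, adjusted p = 0.00528). Cyp4e3 rose by 1.32 (adjusted p = 0.0152), and Cyp6g1, known for its part in resistance to DDT, fell by 0.69 (adjusted p = 0.0137). The calls of Cyp6a8 and Cyp309a1 were kept whichever array was left out, but that of Cyp309a1 was lost in the fit of all 21 magnet arrays (adjusted p = 0.16). Those of Cyp4e3 and Cyp6g1 were lost under 3 and 2 omissions (adjusted p = 0.0799 and 0.0805 without outside replicate 1). Of 34 glutathione transferases only GstE5 was called, with a fall of 1.21 (SE 0.18, adjusted p = 0.0138). This is 2.94% of the list, near the 2.00% of all probe sets. The call was missed without 0g* replicate 2 (-1.11) and with a replicate block (adjusted p = 0.0613).

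Of 49 odorant-binding proteins, small secreted carriers of odours and other ligands, 5 fell and 0 rose, or 10.2% called lower against 0.991% of all probe sets, with a list median of 0.02. Obp99a was at 9.79 and 10.54 at 0g*, 9.28 and 9.82 at 1g* and 10.83, 10.96 and 10.96 outside, a fall of 1.06 (SE 0.19, adjusted p = 0.0304). Obp69a fell by 0.78 (adjusted p = 0.0142), Obp57b by 0.58 (adjusted p = 0.0348) and Obp57c by 0.51 (adjusted p = 0.04). Every field array was below every outside array for each of these 4 genes. Their calls were lost under 3 to 6 of 7 omissions, and the list held 0 falls without outside replicate 1, 2 or 3 in turn.

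Genes of sugar metabolism and insulin signalling gave 2 calls on each of 3 short lists, where 2.00% of all probe sets were called. Amyrel, related to amylase, was at 6.21 and 5.88 at 0g*, 5.58 and 5.54 at 1g* and 4.73, 5.04 and 4.78 outside, a rise of 0.95 (SE 0.13, adjusted p = 0.00884). Mal-A8, a maltase, fell by 1.08 (SE 0.22, adjusted p = 0.046); these were the only calls among 19 maltases and amylases. UGP, which makes the UDP-glucose from which glycogen is built, was at 5.58 and 6.32 at 0g*, 5.63 and 5.55 at 1g* and 4.69, 4.56 and 4.77 outside, a rise of 1.10 (SE 0.17, adjusted p = 0.0153). Pepck2, an enzyme of gluconeogenesis, rose by 0.67 (adjusted p = 0.0226). Both UGP and Pepck2 stood above all outside arrays in the field, and they were 2 of 10 genes on the list. In the insulin pathway S6k, a kinase that promotes translation, rose by 0.79 (adjusted p = 0.025) and the transcription factor foxo by 0.59 (adjusted p = 0.0457), as 2 of 13 genes. With each array centred on its own median, foxo was not called (adjusted p = 0.0984). The calls of Amyrel, UGP, Pepck2, S6k, Mal-A8 and foxo were lost under 2, 3, 4, 4, 5 and 7 of 7 omissions, with the highest adjusted p at 0.215 for foxo without outside replicate 3.

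Several gene groups gave no call by limma at an adjusted p under 0.05, where 2.00% of all probe sets were called. They were those of yolk (0 of 3), chorion (0 of 7), phototransduction (0 of 12), oxidative phosphorylation (0 of 69) and the proteasome (0 of 40). At that share, 0 calls on a short list are not a result about its genes. The unadjusted p was under 0.05 for 2614 of all 18769 probe sets. Yp1, Yp2 and Yp3, the yolk proteins secreted into the haemolymph, differed by 0.07, -0.08 and 0.05 with adjusted p values of 0.806, 0.773 and 0.867. Arr1 and Arr2, the arrestins that shut off rhodopsin, differed by 0.16 (adjusted p = 0.56) and 0.03 (adjusted p = 0.959). The signs of Yp1, Yp3 and Arr2 changed with the scaling. The odorant-binding protein gene Obp44a was at 10.55, 10.90, 10.83 and 10.34 in the field and 10.33, 10.05 and 10.16 outside (0.48, adjusted p = 0.188). smp-30 was at 8.64, 8.52, 8.95 and 7.81 in the field and 9.29, 9.18 and 9.05 outside (-0.69, adjusted p = 0.206). For both genes field and outside did not overlap, and the difference missed the threshold.

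Some genes varied more among field arrays than between field and outside. TotC, a Turandot gene induced by stress, was at 12.19 and 8.46 at 0g*, 8.45 and 10.91 at 1g* and 7.87, 7.52 and 7.11 outside. All field arrays were higher, yet the spread left the difference of 2.50 (SE 0.82) at an adjusted p of 0.198. Fst, known as Frost for its induction during recovery from cold, was at 9.20 and 6.93 at 0g*, 9.15 and 7.63 at 1g* and 6.81, 6.98 and 7.28 outside (1.20, SE 0.51, adjusted p = 0.334). Fst was high on replicate 1 of each position, and 1 field array lay within the outside range. Lsp2, a storage protein of the haemolymph, was at 9.08, 8.86, 6.98 and 8.98 in the field and 8.75, 8.32 and 8.89 outside (-0.18, adjusted p = 0.884), the low value being that of 1g* replicate 1. Without that array the sign of Lsp2 turned, to 0.32.

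The 0g* and 1g* positions within the field were compared directly. They differ in effective gravity and in field strength, which cannot be told apart here. One probe set (0.00533%) was called between 0g* and 1g*, that of CG4066, and 1299 had an unadjusted p under 0.05. CG4066 was at 4.60 and 4.86 at 0g*, 6.56 and 6.73 at 1g* and 4.47, 4.75 and 4.48 outside, and 0g* minus 1g* was -1.92 (SE 0.16, adjusted p = 0.0158). Its 1g* arrays stood apart, and its 0g* arrays overlapped those outside. The call was lost without 0g* replicate 1 (-1.79, adjusted p = 0.0805), 1g* replicate 1 or outside replicate 1. The number of calls between 0g* and 1g* was 0 when 1g* replicate 1 was omitted and 336 when 1g* replicate 2 was, which leaves at 1g* only the array on which male transcripts were seen. The metallothionein gene MtnB, whose protein binds copper and other metals, was at 7.47 and 6.79 at 0g*, 10.06 and 9.95 at 1g* and 8.04, 8.48 and 9.12 outside. The outside arrays lay between the field positions, and 0g* minus 1g* was -2.88 (SE 0.33, adjusted p = 0.0933). In the other direction, the cuticle gene TwdlB was at 6.75 and 6.04 at 0g*, 4.14 and 4.25 at 1g* and 3.83, 5.07 and 3.73 outside, a difference of 2.20 (SE 0.41, adjusted p = 0.399). Its 1g* arrays were near their background (4.052 and 4.2205), so the size of this difference is uncertain. MtnB and TwdlB were named for their small p values in this comparison, and neither was called.

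**Figure D4:**
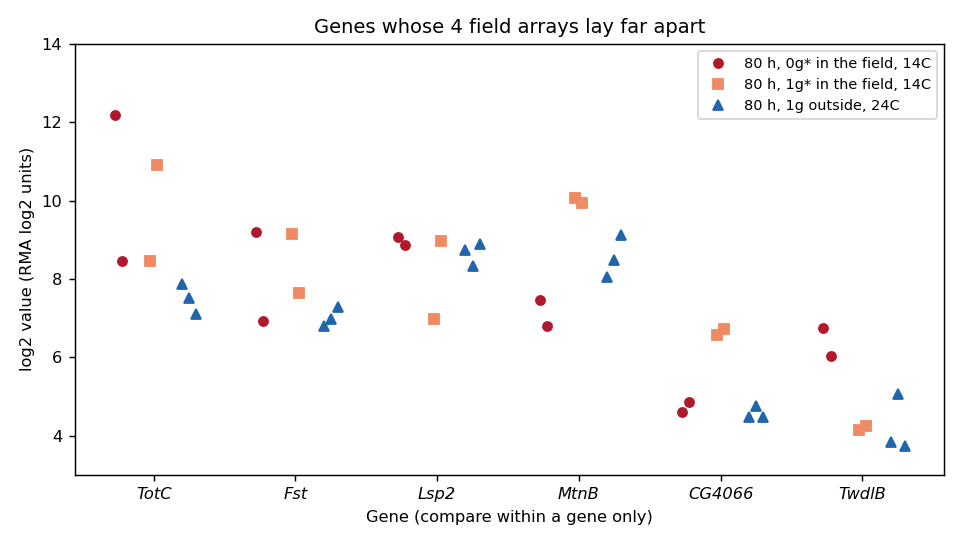
The y axis is the log2 value on each of the 7 arrays of the 80 h run for 6 genes, by group; values can be compared within a gene only. MtnB, CG4066 and TwdlB were chosen for their small p values between 0g* and 1g*, so the gap between these positions is not a separate result. TotC and Fst differ between replicates of the same position, and Lsp2 has 1 low array at 6.98.

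The first magnet run of the same series gave the same comparison on other arrays, with field arrays at 0g* and 1g* at 14C (n = 3 each) and outside arrays at 24C (n = 3). No length of exposure is labelled for it, and its 1g* replicate 1 also carried male transcripts, with a seminal fluid median of 7.60 against 3.71 to 4.15 on the other 13 arrays. It had 1109 calls (5.91%), 757 higher (4.03%) and 352 lower (1.88%), and 388 when the outside array whose temperature labels differ was omitted or 769 when its 1g* replicate 1 was. Of the 189 probe sets that were higher in the field at 80 h, 160 were higher in the first run too, against 48.5% of all probe sets, and 62 were called higher there. Of the 186 that were lower at 80 h, 64 were lower in the first run, against 51.4% of all, and 7 were called lower. The rises had a first-run median of 0.50 and the falls one of 0.24. Among the rises, tim on probe set 1631468_a_at differed by 1.45 in the first run (adjusted p = 0.0167), CG13315 by 1.32 (adjusted p = 0.000473), CG6870 by 1.24 (adjusted p = 0.00665), Cyp6a8 by 1.20 (adjusted p = 0.00111) and Tsp42Ei by 1.02 (adjusted p = 0.018). These 5 genes thus rose in both runs. Outside the field, the first-run arrays at 14C differed from those at 24C by 0.64, 0.79, 0.88, 0.64 and 0.68 in the same order, with adjusted p values of 0.246 to 0.75, and 90 probe sets (0.480%) were called there, all higher at 14C. When the array with differing temperature labels was omitted, 56 were higher and 6 lower. CG18649 and CG10581, also large rises at 80 h, differed by 0.05 and -0.16 in the first run.

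The difference between runs was tested on all 21 magnet arrays. Field at 14C minus outside at 24C joins field and temperature in both runs. The run difference was called for 432 probe sets (2.30%), 57 with a higher field minus outside value at 80 h and 375 with a lower one. It was called for 96 of the 186 falls at 80 h and 21 of the 189 rises. Pdh, the photoreceptor dehydrogenase of the eye, was at 8.33, 7.96, 8.41 and 8.16 in the field and 9.27, 9.12 and 9.25 outside at 80 h, a fall of 1.00 (SE 0.13, adjusted p = 0.00783), and was called in both positions. In the first run Pdh was higher in the field by 3.17 (adjusted p = 1.79e-06), and the runs differed by -4.17 (adjusted p = 2.5e-07). Arr1 differed by 5.02 in the first run (adjusted p = 4.87e-09) and by 0.16 at 80 h. The array median of the phototransduction list was 6.01, 6.29 and 6.045 on the first-run arrays outside at 24C. It was 7.125 to 8.055 on the rest of that run, with 7.345 and 7.255 outside at 14C, and 7.375 to 7.615 at 80 h. Of its 12 genes, 8 were called higher in the field in the first run (4.03% of all probe sets). At 14C against 24C outside the field 7 were (0.480% of all). Npc2e (0.81) and Jon25Bi (0.78) were not called in the first run, and the runs differed by -3.03 (adjusted p = 0.000851) and -2.52 (adjusted p = 0.000519). Over the serine protease list 7 genes were called higher in the first run and 11 were called for the run difference. All 11 had a lower field minus outside value at 80 h. The contrast of 3′ and 5′ probe sets for eIF-4a was 1.00 to 1.88 on the 14 first-run arrays and 2.43 to 3.34 on the 7 of the 80 h run, so that the run and this sign of RNA integrity cannot be told apart.

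**Figure D5:**
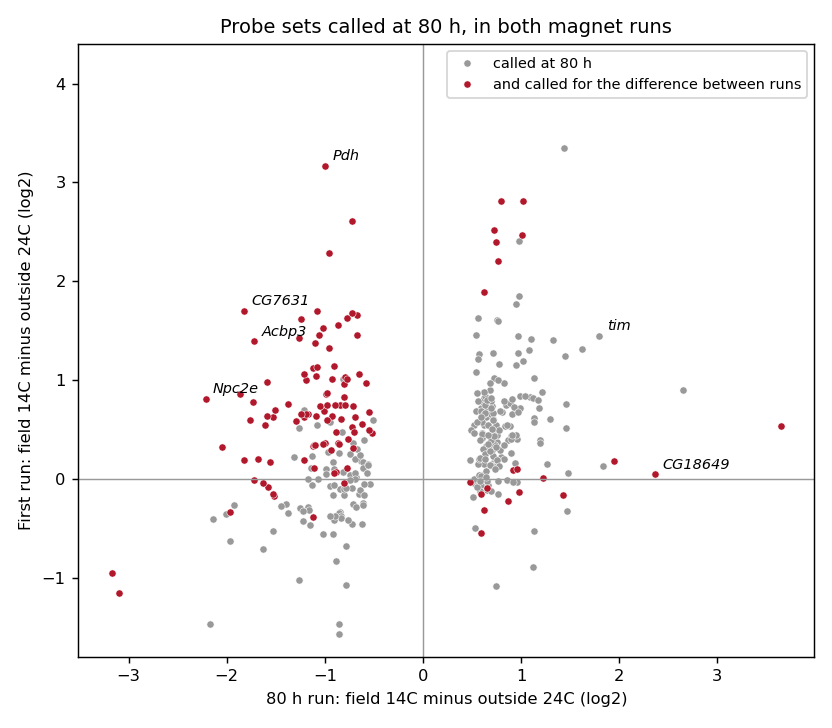
Each point is 1 of the 375 probe sets called at 80 h; the x axis is field minus outside at 80 h and the y axis the same difference in the first run, both in log2 units, with red for probe sets called for the difference between runs. Points right of 0 lie mostly above the horizontal line (160 of 189), and points left of 0 lie on both sides of it (64 of 186 below).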

How the data were processed

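The series holds 50 arrays of adult Oregon R flies on the Affymetrix Drosophila Genome 2.0 array. The authors deposited log2 values from RMA, given to 2 decimals; the submitters' processing notes also name limma, without versions. Scanner files and scan batches were not used here. Of 18952 probe sets, 183 controls were left out. Gene symbols came from the array annotation, updated to the RefSeq gene table; 13544 probe sets were matched to current symbols, 402 carried several symbols and 4720 none.

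Group means were fitted with limma 3.58.1 in R 4.3.3 on the 7 arrays of the 80 h run (4 residual degrees of freedom), on the 14 arrays of the first magnet run and, for the run difference, on both. P values were adjusted by the method of Benjamini and Hochberg over all 18769 probe sets. A probe set was at background in a group when no array of it exceeded the 95th percentile of the 50 plant controls. On lists each gene stood by its brightest probe set, and lists were described by counts and medians. The genes named were the 10 largest rises and 10 largest falls called in the pooled comparison and in both positions without overlap, up to 4 members of each list with the smallest p, 10 genes fixed by name and the genes leading the 0g* and run contrasts. The members and lists were chosen with earlier results of these data known. Alternatives were repeated quantile normalization, median centring, a filter on dim probe sets, a replicate block, other array sets and the omission of each array. Replicates are called biological in the titles, and nothing says that they came from separate cultures, so p values measure the spread between these samples. Array number limits the precision. The procedure was tested on simulated arrays.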

Additional observations from a re-analysis of the deposited data

Results flagged for a closer look

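Among 66 probe sets named for the 80 h comparison, 3 had a single field array whose gap to the nearest of the others was large for the range of the 4 by Dixon's test, which by chance flags about 1 in 20. These were Def at 7.69 on 1g* replicate 1, where the other 3 arrays were at 7.57, 7.58 and 7.57 and the gap was small in log2 units, UGP at 6.32 on 0g* replicate 2 and Lsp2 at 6.98 on 1g* replicate 1.

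Field minus outside differed between the 80 h and the first run for 35 of 76 named probe sets and 2.30% of all probe sets. It joins field and temperature, and the threshold was an adjusted p under 0.05 by limma. Some of the 76 were named for this difference, so their share is a description of the choice. It was lower at 80 h for the photoreceptor and head genes Arr1 (-4.86), Arr2 (-2.91), Pdh (-4.17, with a fall at 80 h and a rise in the first run), chp (-3.11) and Nplp3 (-3.92), and for CG6839 (-3.24), the storage protein gene Lsp2 (-5.17), Obp44a (-3.38) and smp-30 (-2.13). It was lower as well for the serine proteases Jon25Bi (-2.52), Jon25Bii (-2.21), Jon65Aii (-1.71) and thetaTry (-1.35), and for Npc2e (-3.03), Acbp3 (-3.11), CG7631 (-3.52), CG4563 (-2.35), CG10910 (-2.02), CG9825 (-1.63) and Cpr72Ec (-2.38). CG7631 and Acbp3 were called higher in the field in the first run (1.70 and 1.40) and lower at 80 h. Odorant-binding proteins with a lower field minus outside value at 80 h were Obp99a (-2.52), Obp57b (-1.56) and Obp69a (-0.89). Mal-A8 (-2.78), GstE5 (-1.84), Cyp6g1 (-1.32) and Hsp68 (-1.37) followed, with the shared Hsp70 probe sets for Hsp70Bc and Hsp70Bb (-2.22) and for Hsp70Bbb, Hsp70Bc, Hsp70Bb and Hsp70Ba (-1.95). It was higher at 80 h for CG18649 (2.32), CG10581 (1.59), CG14265 (1.11) and the cuticle genes Cpr47Eg (1.76), TwdlL (1.22) and Lcp65Ag3 (3.11).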

How the results depend on the processing

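The number of probe sets called moved by over 1.5 times with a replicate block, although same-numbered arrays did not all deviate together (correlations of -0.0097 to 0.0477 at 80 h and -0.596 to 0.469 in the first run, over 0.1 for 9 of 26 pairs there), so the numbers were not taken to pair the arrays: it was 63 for the pooled comparison, 41 at 0g*, 41 at 1g*, 21 in both positions, 0 between 0g* and 1g*, 684 in the first run and 52 for first-run temperature. In a fit of all 21 magnet arrays these counts were 176, 96, 77, 37, 14 and 2116 for the first 6. CG4066 was not among the 14 called there between 0g* and 1g*. With 1 array left out they ranged from 83 to 822 (pooled), 20 to 232 (0g*), 44 to 650 (1g*), 13 to 104 (both positions), 0 to 336 (0g* against 1g*), 358 to 2621 (first run), 36 to 167 (temperature) and 248 to 933 (run difference); where this left 1 array in a group, it was taken to vary like the others. The first-run count was lowest without outside replicate 3 and highest without 1g* replicate 2. Of 67 named results that were called, 31 were called under every alternative, among them 9 of the 10 largest rises and 8 of the 10 largest falls. The differences of Yp1 (-0.0296 with quantile normalization, -0.0042 with centring), Yp3 (-0.03 with centring), Arr2 (-0.0492 with centring, -0.0475 with the block, -0.0858 to 0.1442 with single arrays left out) and Lsp2 (-0.6783 to 0.3217 with single arrays left out) turned in sign; the causes were not tested. Few arrays and signals near background limit small differences.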
